A study of Mus musculus with 18 samples.

Results

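Transcripts of p53, encoded by Trp53, and of 9 of its target genes were followed through heat shock (HS) and tunicamycin treatment of mouse fibroblasts. The 10 genes were chosen by name, as p53 itself, its inhibitors Mdm2 and Mdm4, and the targets Cdkn1a, Ccng1, Trp53inp1, Phlda3, Ei24, Perp and Zmat3, and all 10 were found among the 20207 genes listed for every sample. The choice was made with earlier results of these data known. The question was whether Cdkn1a moved with the other target genes. At 135 min of HS, Cdkn1a was 1.74-fold higher than in the control, the only gene of the 10 to pass the test, beside 7.39% of all genes. This call was lost with an offset for GC content and in most fits with a library left out. Zmat3, Mdm2 and Trp53inp1 had positive values that missed the threshold but passed with the offset, with which 20.5% of all genes passed. The values of Zmat3 and Trp53inp1 were larger than that of Cdkn1a, whereas Trp53 had a value near 0. At 405 min of tunicamycin, Trp53 and Zmat3 rose 1.83-fold and 1.82-fold, Ccng1 fell to 0.638 of the control, and Cdkn1a stood at 1.09 of the control, a difference that did not pass the test. At 405 min 46.8% of all genes passed, so the share of the 10 genes called was below that of all genes. The call of Ccng1 was lost in most fits with a library left out.

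The cells were NIH3T3, an established line of mouse embryonic fibroblasts, stably transduced with a destabilizing domain fused to superfolder GFP (DD-GFP) and sorted as a population for high fluorescence. The small-molecule ligand Shield-1, which keeps the domain folded, stayed on the cells in all samples used here, so every group, the control included, carried the transgene and the ligand. The 18 samples formed 6 groups of 3: control cells at 37°C without tunicamycin, cells shifted to 42°C for 45 or 135 min (HS), and cells given 5 µM tunicamycin, an inhibitor of N-linked glycosylation, for 45, 135 or 405 min (Tu). HS and tunicamycin served the study as references for the heat shock response and the unfolded protein response of the endoplasmic reticulum, and samples in which the ligand was withdrawn are not analysed here. The labels number the samples of a group 1 to 3 without saying that they came from separate cultures, so the p-values measure the spread between these samples, which may be technical.

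p53 is a transcription factor that binds paired decamer sites in DNA and turns on genes of cell-cycle arrest, cell death, DNA repair and metabolism. In unstressed cells it is kept low mainly at the protein level, because the ubiquitin ligase Mdm2, itself a p53 target, binds it and sends it to the proteasome, and the related Mdm4 masks its activation domain. Cdkn1a encodes p21, the inhibitor of cyclin-dependent kinases through which p53 arrests the cell cycle, and is the target most often read as a sign of p53 activity, although other transcription factors act on it as well. The level of Trp53 mRNA is a different quantity from the amount or activity of p53 protein, neither of which was measured in these files.

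The matches to the p53 consensus near the starts of the members are shown because the members were grouped as targets of a single factor. The search took the p53 consensus of 2 decamers without spacer, which is its own reverse complement, allowed at most 2 mismatches outside the 4 invariant C and G letters, and covered 3000 bases on either side of each gene's start on mm9. At least 1 match was found at 4 of the 10 members against 6.07% of 18995 genes, and a match with at most 1 mismatch at 3 members against 0.979% of genes. Because the members were chosen by name as p53 targets, this difference is no test of the grouping. The matches with at most 1 mismatch are given 5′ to 3′ on the strand of the gene, with the invariant C and G letters in capitals.
Zmat3, chr3:32263253-32263272, 0 mismatches, gene on the minus strand: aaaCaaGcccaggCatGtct
Cdkn1a, chr17:29227873-29227892, 1 mismatch, gene on the plus strand: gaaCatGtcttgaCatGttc
Ccng1, chr11:40568438-40568457, 1 mismatch, gene on the minus strand: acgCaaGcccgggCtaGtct
Ccng1, chr11:40568964-40568983, 1 mismatch, gene on the minus strand: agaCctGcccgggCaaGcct
The match of Zmat3 lay 1325 bases after the gene's start as the files give it, that of Cdkn1a 2834 bases before it, and those of Ccng1 341 bases after and 185 bases before it. Perp held 2 matches with 2 mismatches each, and the other 6 members held none, which says only that these letters are not in this window. A match is a description of the sequence and not a measured site.

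The same bases of Cdkn1a stood at bases 200 to 219 of the RefSeq promoter window of Cdkn1a, of which the 250 bases before the RefSeq start are shown with the match in capitals (GRCm38.p6, chr17:29090729-29090978, plus strand). That start lies upstream of the start in the files.
Cdkn1a promoter: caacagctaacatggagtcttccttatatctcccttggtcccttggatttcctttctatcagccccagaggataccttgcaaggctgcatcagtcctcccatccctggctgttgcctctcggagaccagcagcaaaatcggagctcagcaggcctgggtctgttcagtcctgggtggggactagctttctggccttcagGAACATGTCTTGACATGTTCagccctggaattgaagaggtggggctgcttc

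Library totals ran from 33415728 to 66478402 reads on genes, so that 3 reads corresponded to 0.0451 to 0.0898 CPM (a gene's reads scaled to a common library total), a floor that covers counting error only. The fibroblast markers summed to 8230 to 8480 RPKM (reads scaled by gene length and library total) in the control, to 6180 to 10200 RPKM in HS and the earlier Tu samples and to 3370 to 3780 RPKM at Tu 405 min, whereas the epithelial, endothelial and muscle lists stayed at or under 0.132 RPKM, and the leukocyte list, at 3.72 to 7.61 RPKM, rested on Cd68. Cdkn2a, whose Arf product holds Mdm2 away from p53, had 0 reads in all 18 samples. Several libraries stood apart from their groups: Hspa1b, an inducible Hsp70 gene, had 46.0 CPM in HS 45 min replicate 3 against 280 and 223 CPM in the other replicates, and 263 CPM in HS 135 min replicate 1 against 1140 and 1210 CPM. Within groups, 74.0% of the spread of all tested genes lay on a single axis whose gene weights followed transcript GC content (rho = 0.70 by Spearman's rank over 12398 genes, not independent of each other). Results were therefore also computed with an offset for GC content and without each library in turn.

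In reads per length, Trp53 had the highest level of the 10 genes in every group, with 167 ± 5.70 RPKM (SD, n = 3) in the control. Phlda3 at 55.2 ± 9.50 RPKM and Cdkn1a at 42.4 ± 2.13 RPKM (SD, n = 3) came next in the control, and their samples overlapped. Ccng1 and Mdm2 followed at 23.8 and 20.5 RPKM, then Ei24 and Zmat3 at 9.02 and 5.46 RPKM, and the samples of either pair overlapped. Mdm4 had 3.79 RPKM and Trp53inp1 0.427 RPKM in the control, each apart from its neighbours, and Perp was last at 0.0649 RPKM. At 135 min of HS, Cdkn1a stood at 65.5 RPKM and above Phlda3 at 51.5 RPKM by the mean, but the samples of the pair overlapped. At 405 min of tunicamycin, Zmat3 at 9.47 RPKM lay above Ei24 at 6.56 RPKM, with no overlap.

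**Figure D1:**
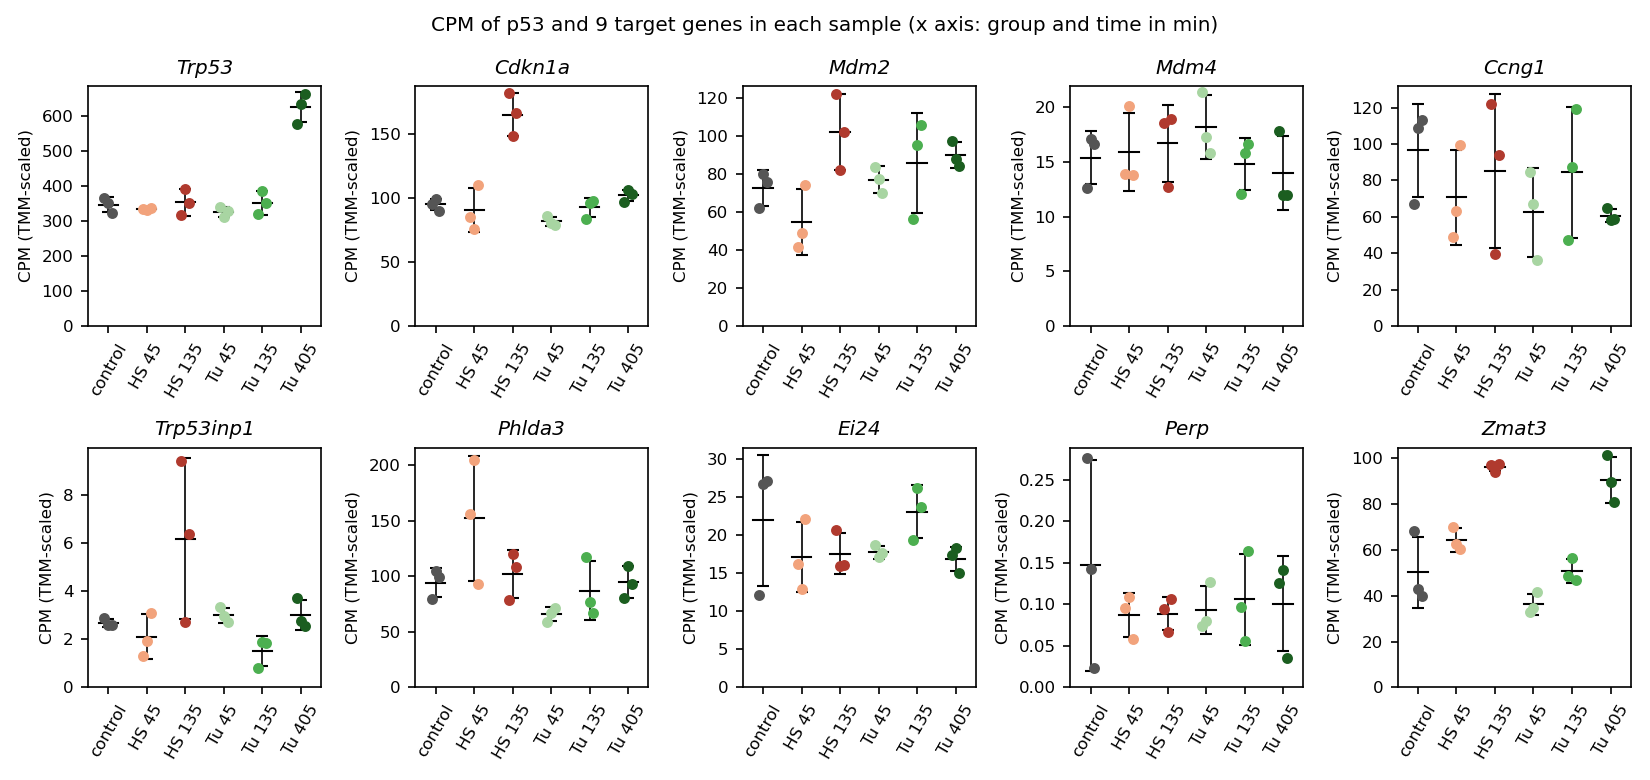
CPM of each of the 10 genes (y axis, linear from 0, scaled by TMM over the 18 samples) in each sample (points) of the 6 groups (x axis, time in min), with the group mean (line) and SD (bar), n = 3. Trp53 lies between 578 and 662 CPM at Tu 405 min and between 312 and 392 CPM in all other groups, and Cdkn1a lies between 148 and 182 CPM at HS 135 min and at or under 110 CPM elsewhere.

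Trp53 (chromosome 11 of mm9, 69393861 to 69405375) had 365, 352 and 324 CPM in the 3 control samples and 578, 635 and 662 CPM at Tu 405 min. All 3 samples at 405 min lay above all 15 others. The log2 fold change against the control was 0.87 (standard error 0.127, 95% interval 0.58 to 1.16, Benjamini-Hochberg adjusted p = 0.000983 in edgeR's quasi-likelihood test, the test behind every adjusted p of edgeR below), and the call remained without each library in turn, at 0.80 to 0.92. The summed fibroblast markers were at their lowest in the same samples (3370 to 3780 RPKM against 8230 to 8480 in the control), and their part in the differences at Tu 405 min was not tested. In these bulk samples, more cells with the transcript and more transcript per cell cannot be told apart. At 135 min of HS, Trp53 had 316, 392 and 352 CPM, which spanned the control samples, and the 95% interval of the log2 fold change ran from -0.41 to 0.47. At 45 and 135 min of tunicamycin the intervals were -0.35 to 0.20 and -0.34 to 0.42, and at 45 min of HS -0.48 to 0.38. A processed copy of Trp53 is annotated elsewhere in the genome, and how reads matching both places were counted is not given in the sources used here.

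Mdm2 (chromosome 10, 117125961 to 117147772), the main negative regulator of p53, had 61.9, 79.9 and 75.6 CPM in the control and 122, 82.0 and 102 CPM at HS 135 min. Every HS sample lay above every control sample, though replicate 2 only by a small margin. The log2 fold change of 0.50 (95% interval -0.02 to 1.01) did not pass the test, with an adjusted p of 0.178 in edgeR's quasi-likelihood test, Benjamini-Hochberg method. At Tu 405 min Mdm2 had 97.3, 88.1 and 84.3 CPM, again above all control samples, and a log2 fold change of 0.33 (95% interval 0.03 to 0.64) with an adjusted p of 0.0703 in the same test of edgeR. With the GC offset, the values of Mdm2 were 0.76 at HS 135 min (adjusted p = 0.0104) and 0.44 at Tu 405 min (adjusted p = 0.00461), and both passed in edgeR's test. At HS 45 min the samples had 41.4, 48.7 and 74.3 CPM, and Mdm2 fell by 0.69 on the log2 scale (adjusted p = 0.0229) only in the edgeR fit without HS 45 min replicate 3, against -0.40 with it. That fit called 3 of the 10 members beside 5786 of all 12731 genes, whereas 0 genes were called with all samples. Mdm4 (chromosome 1, 134886422 to 134921925), the other inhibitor, lay between 12.0 and 21.4 CPM in all 18 samples. None of its 5 comparisons with the control passed the test, and the widest of the 5 intervals, at HS 45 min, ran from -0.57 to 0.66.

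Cdkn1a (chromosome 17, 29230717 to 29237667) had 95.6, 99.1 and 90.1 CPM in the control, and 182, 148 and 166 CPM at HS 135 min. The 3 samples at HS 135 min were the highest of all 18, the next being 110 CPM in HS 45 min replicate 3. The log2 fold change against the control was 0.80 (standard error 0.182, 95% interval 0.38 to 1.22, adjusted p = 0.0405 in edgeR's quasi-likelihood test, Benjamini-Hochberg method). The call lay close to the threshold: it was kept without HS 135 min replicate 1 (0.72) and without replicate 2 (0.90), and lost in edgeR's test without replicate 3 (0.80, adjusted p = 0.188) and without control replicate 1 (0.81, adjusted p = 0.0665), 2 (0.83, adjusted p = 0.178) or 3 (0.76, adjusted p = 0.202). It was also lost with the GC offset (0.69, adjusted p = 0.0531 in edgeR's test) and with library totals in place of TMM, the usual scaling (0.64, adjusted p = 0.0846). It passed with the DESeq2 Wald test (0.81, adjusted p = 0.00955) and in edgeR's fit with the spread shared by all groups (0.80, adjusted p = 0.000928). A replicate block gave 0.79 and an adjusted p of 0.17 in edgeR's test, although the labels do not say that equal numbers pair samples.

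Under tunicamycin Cdkn1a stayed close to the control at all 3 times. At 405 min it had 96.9, 106 and 103 CPM, overlapping the control, with a log2 fold change of 0.12 and a 95% interval of -0.13 to 0.38. That interval lies below the 0.58 that bounds the change of Trp53 in the same samples, although the 2 genes were not tested against each other. At Tu 45 min the samples had 85.6, 80.7 and 79.2 CPM, all under the control, with a log2 value of -0.20 (95% interval -0.47 to 0.07) that did not pass. Between these times Cdkn1a rose by 0.27 on the log2 scale from 45 to 405 min (standard error 0.0950, adjusted p = 0.0407 in edgeR's quasi-likelihood test, Benjamini-Hochberg method). The call was kept without Tu 405 min replicate 1 (0.31) and without Tu 45 min replicates 1 (0.34) and 3 (0.28), and lost without Tu 405 min replicates 2 (0.24) and 3 (0.26) and Tu 45 min replicate 2 (0.29), and with library totals (0.11, adjusted p = 0.343 in edgeR's test). Its adjusted p was also above the threshold in edgeR's test with no filter (0.055), the shared spread (0.106) and the replicate block (0.0621). At HS 45 min Cdkn1a had 85.4, 76.1 and 110 CPM on both sides of the control, and the interval was -0.56 to 0.41.

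Ccng1 (chromosome 11, 40562054 to 40568788), which encodes cyclin G1 and recruits a phosphatase that acts on Mdm2, had 67.2, 109 and 113 CPM in the control and 64.6, 58.4 and 58.7 CPM at Tu 405 min. The 3 treated samples lay together just under the lowest control sample. Ccng1 fell by 0.65 on the log2 scale (standard error 0.193, 95% interval -1.09 to -0.21, adjusted p = 0.0246 in edgeR's quasi-likelihood test, Benjamini-Hochberg method). The call was kept without control replicate 1 (-0.85) and lost without any other library, at -0.54 without control replicate 3, -0.58 without control replicate 2, and -0.72, -0.62 and -0.63 without Tu 405 min replicates 1, 2 and 3. It was also lost in edgeR's fit with the spread shared by all groups (-0.67, adjusted p = 0.242). In the other groups the samples spread widely, from 39.4 to 122 CPM at HS 135 min and from 36.2 to 84.5 CPM at Tu 45 min. At HS 45 min Ccng1 had 48.7, 63.3 and 99.7 CPM, and passed as lower (-0.79) only without HS 45 min replicate 3. The fit without that replicate called 5786 of all genes.

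Zmat3 (chromosome 3, 32233716 to 32264587), an RNA-binding protein that acts on stability and splicing of transcripts, stood, like Mdm2, above the control at the late time of both stresses. It had 67.9, 42.7 and 39.8 CPM in the control, 96.9, 93.8 and 97.3 CPM at HS 135 min and 101, 89.3 and 80.8 CPM at Tu 405 min. None of the samples at either late time overlapped the control, of which replicate 1 was the highest. At Tu 405 min the log2 fold change was 0.87 (standard error 0.215, 95% interval 0.37 to 1.36, adjusted p = 0.0115 in edgeR's quasi-likelihood test, Benjamini-Hochberg method), and it was lost only without Tu 405 min replicate 1 (0.76, adjusted p = 0.0526).

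At HS 135 min the log2 value of Zmat3 was 0.94 (95% interval 0.37 to 1.51), larger than that of Cdkn1a, with an adjusted p of 0.0573 in edgeR's quasi-likelihood test, which missed the threshold. It passed without HS 135 min replicate 2 (0.98) and without control replicate 1 (1.23), with the GC offset (1.13, adjusted p = 0.0339 in edgeR's test) and with the DESeq2 Wald test (0.94, adjusted p = 0.0176). Zmat3 also differed between the stresses at 135 min, where tunicamycin gave 48.7, 56.5 and 46.9 CPM: the difference was 0.89 on the log2 scale (standard error 0.167, adjusted p = 0.0488 in edgeR's test), higher under HS in all 3 samples, and it missed the threshold in all 6 fits that left out a library, at 0.84 to 0.99. For Cdkn1a the same difference between the stresses was 0.81 (95% interval 0.41 to 1.21) and missed the threshold in edgeR's test, with an adjusted p of 0.0631. It passed with the DESeq2 Wald test (0.82, adjusted p = 0.003) and in edgeR's fit with the shared spread (0.83, adjusted p = 0.00108). In the other settings, the GC offset among them, and in all 6 fits that left out a library it missed the threshold. The share of all genes called by the settings it passed in is not given here.

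Trp53inp1 (chromosome 4, 11083588 to 11101524), a nuclear protein that promotes p53-dependent cell death and autophagy, was expressed at a low level. It had 2.89, 2.62 and 2.59 CPM in the control and 9.44, 2.73 and 6.40 CPM at HS 135 min. HS replicates 1 and 3 lay above all other samples of the series, and replicate 2 lay among the controls. The log2 value was 1.20 (95% interval 0.20 to 2.20) and did not pass edgeR's test (adjusted p = 0.116), but passed without HS 135 min replicate 2 (1.58, adjusted p = 0.00999), with the GC offset (1.58, adjusted p = 0.0166) and with the DESeq2 Wald test (1.21, adjusted p = 0.041). At Tu 135 min the samples had 0.798, 1.91 and 1.86 CPM, all under the control, with a log2 value of -0.80 (95% interval -1.61 to 0.01). The samples at Tu 405 min had 3.72, 2.77 and 2.56 CPM, which overlapped the control.

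Phlda3 (chromosome 1, 137662662 to 137665710), which blocks Akt signalling at the membrane, had 79.2, 105 and 99.1 CPM in the control, and 156, 205 and 92.9 CPM at HS 45 min. HS replicates 1 and 2 lay far above the control and replicate 3 within it. The log2 value of 0.68 (95% interval -0.03 to 1.40) did not pass. It became 0.94 (adjusted p = 0.00913 in edgeR's test) without HS 45 min replicate 3, a fit that called 5786 of all genes. With the GC offset the value was -0.19. The longest transcript of Phlda3 has 62.6% GC, at the 98.5th percentile of tested genes, and the part of GC content in this value was not tested. At Tu 45 min Phlda3 had 59.2, 67.2 and 71.7 CPM, all below the control, with a log2 value of -0.50 (adjusted p = 0.0838 in edgeR's test) that passed without control replicate 1 (-0.62, adjusted p = 0.015) and with the DESeq2 Wald test (-0.52, adjusted p = 0.0243). These settings called 2499 and 1843 of all genes, in that order, against 786 in edgeR's test with all samples. From 45 to 405 min of tunicamycin Phlda3 rose by 0.48 (standard error 0.129, adjusted p = 0.0134 in edgeR's test), a call lost without Tu 405 min replicate 2 (0.36, adjusted p = 0.0632) and in the fit with the spread shared by all groups (0.52, adjusted p = 0.167), and returned to 80.9 to 109 CPM.

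Ei24 (chromosome 9, 36586741 to 36604653), a protein of the endoplasmic reticulum linked to cell death and autophagy, had 12.1, 26.8 and 27.2 CPM in the control, where replicate 1 stood apart. The samples at Tu 405 min had 17.4, 18.3 and 15.1 CPM, between the low and the high control samples, and none of its comparisons with all 3 control samples passed the test. Without control replicate 1, Ei24 was lower at Tu 405 min (-0.65, adjusted p = 0.000666 in edgeR's test) and at Tu 45 min (-0.59, adjusted p = 0.0176 in edgeR's test). The fits without that replicate called 7897 of all genes at Tu 405 min and 2499 at Tu 45 min. The reads of Ei24 can be shared with a non-coding gene that overlaps it on the opposite strand, since the counting is not stated to use strand. Perp (chromosome 10, 18564877 to 18576878), a desmosome-associated membrane protein of epithelia that takes part in p53-dependent cell death, had 1 to 11 reads in each of the 18 libraries. These counts are near the floor of 3 reads, and its comparisons, none of which passed, are not described further.

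Against the control, 0 of the 10 genes passed the test at HS 45 min, as did 0.0% of the 12731 genes tested. In edgeR's test 2480 genes had an unadjusted p under 0.05 at that time, none of the members among them, and the DESeq2 Wald test called 451 genes (3.54%) and 0 members. At HS 135 min 1 member passed (Cdkn1a, higher), beside 7.39% of all genes (4.75% higher and 2.64% lower). At Tu 45 min and Tu 135 min 0 members passed, against 6.17% and 0.134% of all genes, and the smallest adjusted p among the members was 0.0838 and 0.274 in edgeR's test. The DESeq2 Wald test called 1 member (Phlda3, lower) at Tu 45 min, beside 14.5% of all genes. Unadjusted, 1 member at Tu 45 min and 0 at Tu 135 min had a p under 0.05 in edgeR's test, beside 3260 and 2369 of the 12731 genes. At Tu 405 min 3 members passed, Trp53 and Zmat3 as higher and Ccng1 as lower, beside 46.8% of all genes (23.3% higher and 23.5% lower), so the share of members called was below that of all genes. The median log2 value of the members was -0.21, 0.12, -0.24, -0.03 and 0.07 in the order HS 45, HS 135, Tu 45, Tu 135 and Tu 405 min, and that of all tested genes was -0.03, -0.02, 0.0, 0.0 and -0.01. These comparisons share the control samples, of which replicate 1 stood apart for Ccng1, Ei24 and Zmat3.

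**Figure D2:**
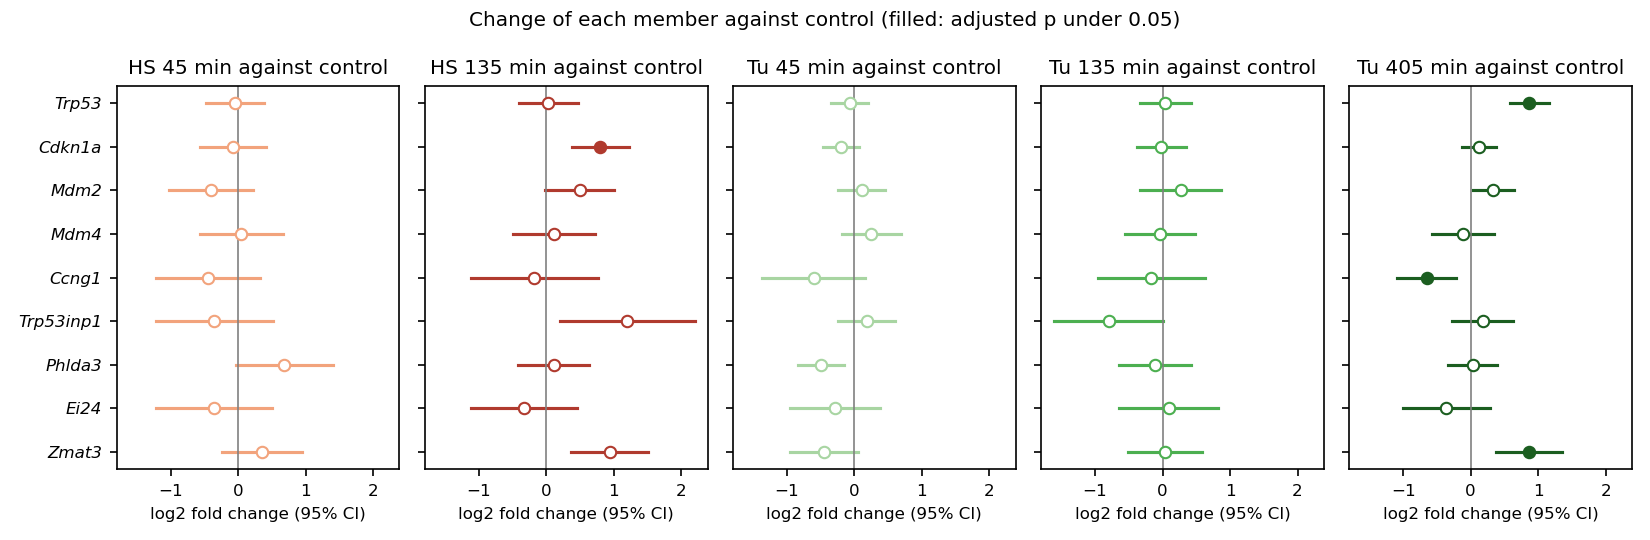
Log2 fold change against the control (x axis) of 9 of the 10 genes (y axis) in the 5 comparisons (panels), with the 95% interval as a bar and a filled point where edgeR's adjusted p was under 0.05. Perp is left out because its counts are near the floor. Filled points stand at Cdkn1a for HS 135 min (0.80) and at Trp53 (0.87), Zmat3 (0.87) and Ccng1 (-0.65) for Tu 405 min.

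The members called at HS 135 min depended on the treatment of GC content. With the offset, 3 members passed in edgeR's test, Mdm2, Trp53inp1 and Zmat3, beside 20.5% of all genes, and Cdkn1a missed the threshold. Of the members positive without the offset, Cdkn1a, Mdm2, Zmat3, Trp53inp1 and Mdm4 stayed positive, and Trp53 and Phlda3 turned negative. The values with the offset were 0.69 for Cdkn1a, 0.76 for Mdm2, 1.13 for Zmat3, 1.58 for Trp53inp1 and 0.54 for Mdm4. Trp53 stood at -0.09 with the offset and 0.03 without it. The transcripts of Trp53inp1, Ccng1 and Mdm4 have 38.8%, 40.8% and 42.8% GC, the lowest of the members, and their values at HS 135 min moved upwards with the offset, whereas Phlda3 moved from 0.11 to -0.38. Cdkn1a, at 54.6% GC, lies at the 71.0th percentile of tested genes. The offset also removes any true difference that follows GC content.

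**Figure D3:**
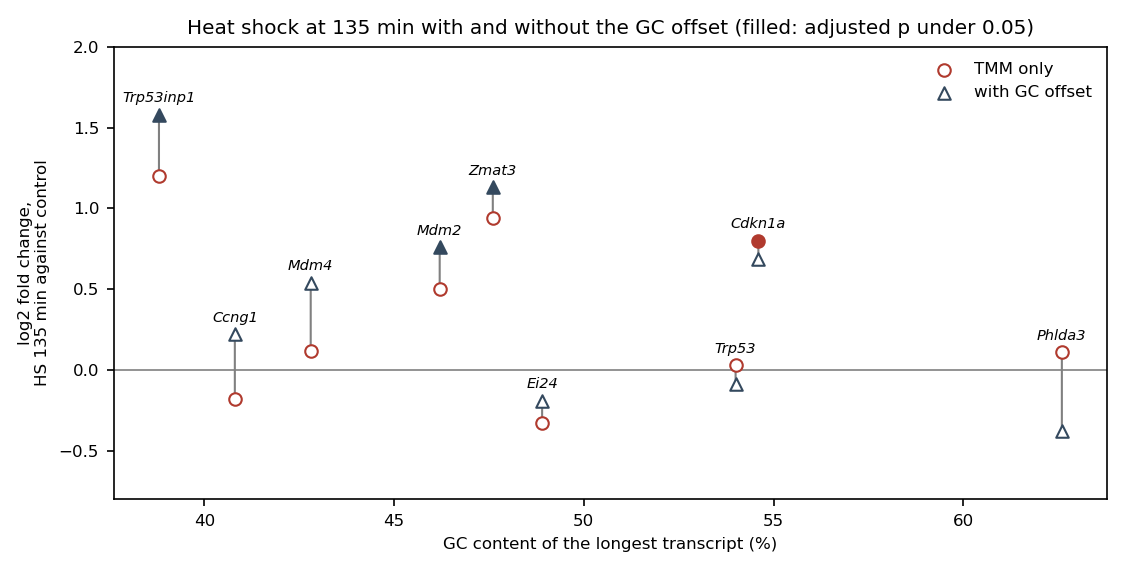
Log2 fold change of HS 135 min against the control (y axis) of 9 members by the GC content of their longest transcript (x axis, %), with TMM alone (circles) and with the GC offset (triangles). Filled symbols have an adjusted p under 0.05 in edgeR's test. Cdkn1a is filled with TMM alone (0.80), and Mdm2, Zmat3 and Trp53inp1 are filled with the offset (0.76, 1.13 and 1.58).

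Across the 18 samples, the members whose log2 CPM was most like that of Cdkn1a were Trp53inp1 (Pearson's r = 0.72), Zmat3 (r = 0.67) and Mdm2 (r = 0.62), which stood at the 99.0th, 98.4th and 97.5th percentiles of all tested genes. Ccng1 had r = 0.30. The other 5 members had values between -0.07 and 0.09, and Trp53 itself had r = 0.09, at the 61.9th percentile. These correlations are descriptions over 18 points that share 6 groups, the libraries and their GC axis. Over the 6 group means, r was 0.77 for Trp53inp1, 0.76 for Zmat3 and 0.64 for Mdm2. Among the deviations of samples from their group means, Mdm2 and Trp53inp1 had r = 0.76 and 0.70 with Cdkn1a, Zmat3 had r = -0.07, and Phlda3 varied the opposite way (r = -0.82). The first pair lay at the 82.1st and 77.4th percentiles of all tested genes. With the GC offset these values within groups were 0.32 for Mdm2, 0.08 for Trp53inp1, -0.72 for Zmat3 and 0.48 for Phlda3, so Mdm2 and Trp53inp1 lay lower and Phlda3 changed sign. Trp53 had the highest r of the members there, 0.75 at the 81.6th percentile, against 0.08 within groups without the offset. Mdm4 stood at -0.77 with the offset and 0.01 without it. With the GC offset, r over 18 samples was 0.70 for Mdm2, 0.67 for Trp53inp1 and 0.31 for Zmat3.

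**Figure D4:**
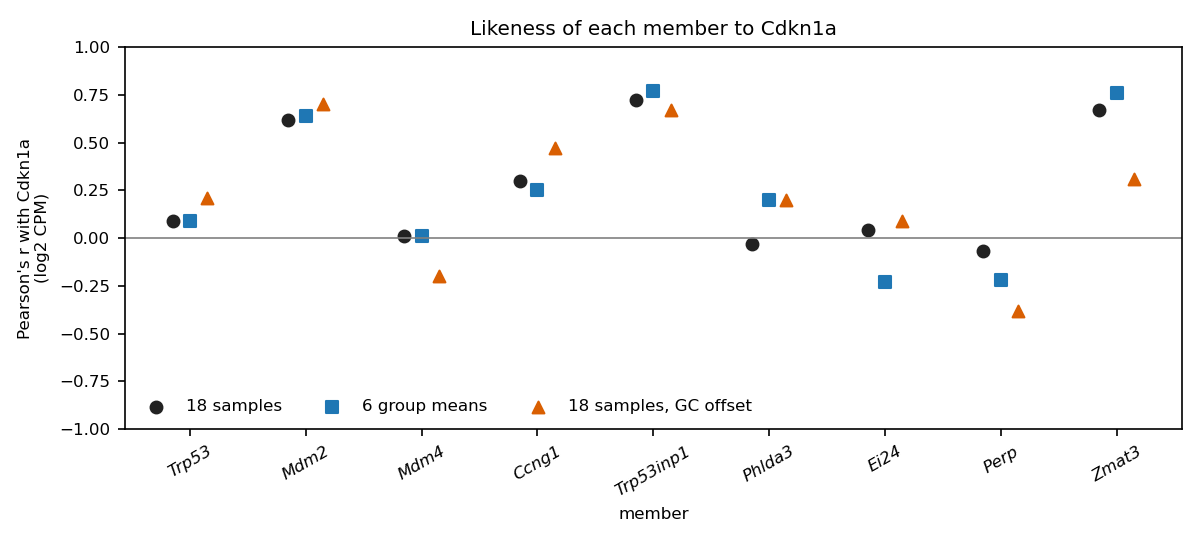
Pearson's r of the log2 CPM of each other member with that of Cdkn1a (y axis) over the 18 samples (circles), over the 6 group means (squares) and over the 18 samples with the GC offset (triangles). Trp53inp1, Zmat3 and Mdm2 have 0.72, 0.67 and 0.62 over the 18 samples and Trp53 has 0.09. Zmat3 drops to 0.31 with the GC offset.

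Among all tested genes with a mean of at least 5 CPM, the 5 most like Cdkn1a over the 18 samples were 1190005F20Rik (r = 0.892), Slc36a1 (r = 0.881), Patl1 (r = 0.879), Zfand2a (r = 0.877) and Numb (r = 0.874). None of them is a member or belongs to the lists of further p53 targets. With the GC offset the 5 were others, Ctsd, 1200016B10Rik, Tnfrsf10b, Fgd6 and Tusc2, and Tnfrsf10b (r = 0.904), a death receptor, is on the cell-death list of further targets. Each of the 5 without the offset had its highest mean at HS 135 min, 55.6 CPM for Numb and 164 CPM for Zfand2a, a gene known for its induction by heat and arsenite. Among the members, Trp53 was most like Zmat3 over the 18 samples (r = 0.53), the gene with which it shared the rise at Tu 405 min. With the GC offset this r was 0.26, below the 0.31 of Trp53 with Mdm2. Within groups, without the offset, Trp53 and Zmat3 had r = 0.18.

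The ratio of RPKM values within a sample compares Cdkn1a with another member in the same library. Cdkn1a over Trp53 was 0.243, 0.262 and 0.258 in the control, 0.534, 0.350 and 0.436 at HS 135 min, and 0.156, 0.154 and 0.144 at Tu 405 min. The 3 sets of samples did not overlap, with HS 135 min above and Tu 405 min below the control. At Tu 45 min this ratio, at 0.234, 0.240 and 0.224, also lay below all control samples, by a smaller margin. The share of other gene pairs whose ratios do not overlap the control was not computed. Cdkn1a over Zmat3 was 5.74, 9.47 and 9.22 in the control, 7.63, 6.43 and 6.94 at HS 135 min, and 3.92, 4.82 and 5.18 at Tu 405 min. This ratio overlapped the control at HS 135 min and lay below it at Tu 405 min. Cdkn1a over Mdm2 overlapped the control at both times, with means of 2.10 ± 0.304 in the control, 2.59 ± 0.255 at HS 135 min and 1.80 ± 0.196 at Tu 405 min (SD, n = 3). At Tu 45 min Cdkn1a over Mdm2 was 1.62, 1.65 and 1.80, below the 1.89 to 2.45 of the control samples. An exact two-sided permutation test of 3 against 3 samples cannot give a p below 0.1, so the ratios are given as descriptions.

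**Figure D5:**
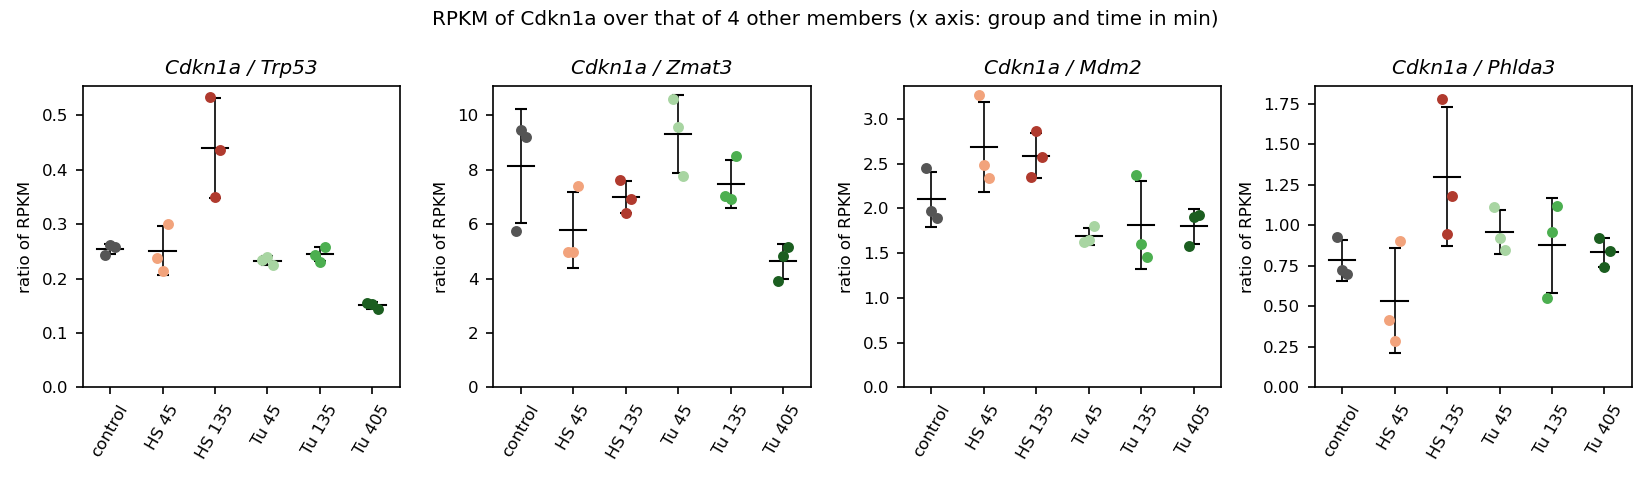
RPKM of Cdkn1a divided by that of Trp53, Zmat3, Mdm2 or Phlda3 (y axis of each panel, linear from 0) in each sample (points) of the 6 groups (x axis, time in min), with mean (line) and SD (bar), n = 3. The ratio to Trp53 is 0.350 to 0.534 at HS 135 min, 0.243 to 0.262 in the control, 0.224 to 0.240 at Tu 45 min and 0.144 to 0.156 at Tu 405 min.

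Times and stresses were also compared without the control. From 45 to 135 min of HS 0 members passed, as did 0.0% of all genes. In edgeR's test 4 members and 1481 genes had an unadjusted p under 0.05. The DESeq2 Wald test called 403 genes (3.17%) and 0 members. Cdkn1a was higher at the later time in all 3 samples, by 0.83 on the log2 scale (95% interval 0.33 to 1.32), as was Mdm2 by 0.86 (0.17 to 1.55) and Zmat3 by 0.54 (0.16 to 0.92). Of the other settings and the fits with a library left out, only edgeR's fit with the spread shared by all groups called members. It called Cdkn1a (adjusted p = 0.0016), Mdm2 (0.0377) and Trp53inp1 (0.0355). Against the control that fit called 1345 of all genes at HS 45 min and 3243 at HS 135 min. Its count of all genes between these times is not given here. From 135 to 405 min of tunicamycin 3 members passed beside 43.7% of all genes: Trp53 rose by 0.81 (standard error 0.138, adjusted p = 0.00289 in edgeR's test), Zmat3 rose by 0.81 (standard error 0.140, adjusted p = 0.00305) and Ei24 fell by 0.47 (standard error 0.164, adjusted p = 0.0486). The calls of Trp53 and Zmat3 were kept without each library, and that of Ei24 only without Tu 135 min replicate 1 (-0.59); without the others, Tu 135 min replicates 2 and 3 and Tu 405 min replicates 1, 2 and 3, Ei24 stood at -0.37, -0.45, -0.49, -0.53 and -0.40. Ei24 was lost as well in edgeR's test with library totals (adjusted p = 0.0548), no filter (0.0677), the shared spread (0.205) and the replicate block (0.124).

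From 45 to 405 min of tunicamycin 4 members rose, beside 52.5% of all genes (24.4% higher). Zmat3 rose by 1.27 (standard error 0.122, adjusted p = 6.75e-05 in edgeR's test) and Trp53 by 0.89 (standard error 0.102, adjusted p = 0.000173), and the others were Phlda3 and Cdkn1a. From 45 to 135 min of tunicamycin 0 members passed beside 0.291% of all genes. In edgeR's test 3 members and 2010 genes had an unadjusted p under 0.05 there. At 45 min 0 members passed between HS and tunicamycin beside 0.204% of all genes, with Phlda3 at 1.20 (95% interval 0.50 to 1.90) and Zmat3 at 0.82 (0.44 to 1.20) higher under HS in all samples. Both passed with the DESeq2 Wald test (adjusted p = 0.00927 and 0.00159) and in edgeR's fit with the shared spread (adjusted p = 0.0141 and 0.0134). The share of all genes that these settings called in this comparison is not given here. With the GC offset Zmat3 passed (1.14, adjusted p = 0.0429 in edgeR's test) and Phlda3 stood at 0.41. At 135 min 1 member, Zmat3, passed between the stresses beside 2.12% of all genes.

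Of 31 further p53 targets in 4 lists (cell cycle, cell death, DNA repair, metabolism and redox), 30 were tested. The lists were chosen with earlier results of these data known, so their shares are descriptions and no test. At HS 135 min 5 of the 30 passed (16.7% of those tested, beside 7.39% of all genes). Gadd45a, a brake on the cell cycle, rose by 1.99 on the log2 scale, Bbc3, the cell-death activator Puma, by 1.97, and Sesn2, an inhibitor of TORC1 signalling, by 1.82. Dram1, a lysosomal autophagy protein, and Prkab1, a subunit of AMP-activated kinase, each fell by 1.28. All 5 calls were lost without HS 135 min replicate 3, control replicate 2 or control replicate 3, with values of 1.90 to 2.11 for Gadd45a and 1.70 to 2.23 for Bbc3 over the fits with a library left out. At HS 45 min 0 of the 30 passed. At Tu 45 min 6 of the 30 passed, beside 6.17% of all genes, with Gadd45a higher by 3.71, Sesn2 by 1.55, Plk2, a Polo-like kinase, by 1.29, Bbc3 by 1.28 and Btg2, an antiproliferative gene, by 0.76, and with the mitotic gene Gtse1 lower by 0.68 on the log2 scale. Of these, Gadd45a, Sesn2 and Plk2 were called without each library in turn, whereas Bbc3, Btg2 and Gtse1 were each lost without control replicate 2 or 3 and without Tu 45 min replicate 2, with ranges of 1.14 to 1.43, 0.67 to 0.83 and -0.75 to -0.63 over all 6 fits with a library left out. Btg2 was lost without Tu 45 min replicates 1 and 3 as well, and Gtse1 without replicate 1. Gadd45a, Sesn2 and Bbc3 are known as targets of stress-activated transcription factors other than p53 as well. Which factors acted on them here was not tested. The 10 members had 0 calls at that time.

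Gadd45a was the only further target that passed at Tu 135 min, at 1.71, and it was called there in 1 of 6 fits with a library left out, at 1.59 to 1.78. At Tu 405 min 16 of the 30 passed (53.3%), 11 higher and 5 lower, beside the 46.8% of all genes. Gadd45a had 351, 434 and 409 CPM at that time against 15.1, 12.3 and 14.9 CPM in the control, a rise of 4.84 on the log2 scale, while Cdkn1a in the same samples stood at 0.12. Cell-cycle targets passed as higher in 4 of 6 tested, among them Btg2 (1.42), Plk2 (1.17) and Plk3 (0.66). Cell-death targets passed as higher in 4 of 12, Bbc3 with the largest value (2.13), and as lower in 3, Lrdd (Pidd1) and Dram1 among them at -1.20 and -1.03, with the apoptosome scaffold Apaf1 close behind. Of the 6 DNA repair targets only Pcna, the replication clamp, passed, at -0.99. Of the 6 metabolism and redox targets, Sesn2 (1.42), 9630033F20Rik (Tigar, 1.10) and Gpx1 (0.65) rose and Sesn1 fell (-1.34). Gpx1 was lost without Tu 405 min replicates 2 or 3 or control replicate 3, at 0.48 to 0.80 over the fits with a library left out.

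Of 19 regulators of p53, 16 were tested. At HS 135 min 1 of them passed, the acetyltransferase Crebbp (1.84), which was lost with library totals and without HS 135 min replicate 3 or control replicates 2 or 3, at 1.59 to 2.46 over the fits with a library left out, and at HS 45 min, Tu 45 min and Tu 135 min 0 passed. At Tu 405 min 8 of the 16 passed, close to the 46.8% of all genes, 2 higher (the ubiquitin ligase Rchy1 and Daxx) and 6 lower. The largest falls were those of the DNA-damage kinases Atm (-1.77), Chek1 (-1.41) and Atr (-1.08) and of Hipk2 (-1.26), a kinase that phosphorylates p53 after damage. Hipk2 was lost when any of the Tu 405 min samples was left out, at -1.34, -1.22 and -1.25, and was called at -0.67 without control replicate 1. Chek1 and Atr were lost in the fit with the spread shared by all groups, with adjusted p = 0.27 and 0.185 in edgeR's test. Atm had 29.6, 36.7 and 35.4 CPM in the control and 11.8, 8.31 and 9.16 CPM at Tu 405 min, but it also spread from 7.90 to 31.1 CPM among the HS 45 min samples and from 8.31 to 32.5 CPM among those at HS 135 min.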

How the data were processed

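Each file held 1 library of mRNA-seq on mouse genes of mm9. The authors aligned and counted reads with a commercial platform, and the aligner, the counter and their versions are not given in the sources used here. The methods describe a modified Illumina library protocol and an automated one without saying which samples each made. The deposited estimated counts per gene (17.7% to 23.2% of low values not whole) were rounded and tested. The authors also deposited RPKM, used for levels between genes, and a score (centred and scaled RPKM) and a signal (RPKM over its root mean square), which were not used.

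Each comparison of 3 with 3 samples was fitted alone with edgeR 4.0.16 in R 4.3.3 (TMM, quasi-likelihood test), with Benjamini-Hochberg adjustment over the 12731 genes that had 1 read or more in each of the 18 samples and a threshold of 0.05. Standard errors came from the F statistic. CPM were scaled by TMM over the 18 samples, with 0.5 CPM added before logs for correlations. Alternatives were DESeq2 1.42.0 (Wald test, size factors), total counts, other filters, a shared fit, a replicate block, a GC offset (lowess, span 0.3, GENCODE transcripts, 96.2% of genes matched) and leaving out each replicate. Replicates of a group all differed beyond counting noise (chi-square). All 10 members, the listed genes past the threshold without overlap (at most 4 a list) and the 5 genes most like Cdkn1a are named. The members and lists were chosen with earlier results of these data known. The scripts were tested on simulated data.

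Whether replicate numbers pair samples was checked by the correlation of deviations of same-numbered samples. Only Tu 135 min against control had all 3 above 0.1 (0.335, 0.314 and 0.284). There the replicate block left 0 members called, as without it, and took the 17 genes called to 0.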

Additional observations from a re-analysis of the deposited data

Results flagged for a closer look

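Of the members' differences, 8 were marked because a direct test between 2 times of a stress, or between the stresses at a matched time, passed (edgeR's quasi-likelihood test, Benjamini-Hochberg method). From 135 to 405 min of tunicamycin these were Trp53 (0.81), Zmat3 (0.81) and Ei24 (-0.47). From 45 to 405 min they were Trp53 (0.89), Zmat3 (1.27), Phlda3 (0.48) and Cdkn1a (0.27). Between HS and tunicamycin at 135 min it was Zmat3 (0.89). All are log2 differences, with the later time or HS higher where positive. Groups of 3 samples are too small for a test of single outlying samples, so none was made.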

How the results depend on the processing

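All values in the next sentences are log2 fold changes against control or counts of calls in edgeR's quasi-likelihood test unless another test is named, and the cause of a changed call was not tested. The value of Cdkn1a at HS 135 min (0.80) was 0.64 with total counts, 0.69 with the GC offset and 0.72 to 0.90 with 1 sample left out. With 1 sample left out its other values ran from -0.23 to 0.04 at HS 45 min, from -0.24 to -0.16 at Tu 45 min, from -0.06 to 0.06 at Tu 135 min and from 0.06 to 0.13 at Tu 405 min. The number of the 10 genes called at HS 135 min (1) became 0 with total counts, 3 with the DESeq2 Wald test, 3 with the spread shared by all groups, 3 with the GC offset, 0 at a log2 fold change of 1 or more in size and 0 to 3 with 1 sample left out. At HS 45 min (0) it was 0 to 3 with 1 sample left out, at Tu 45 min (0) it was 1 with DESeq2 and 0 to 2 with 1 sample left out, and at Tu 405 min (3) it was 0 at a log2 fold change of 1 or more in size and 1 to 4 with 1 sample left out.

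Over all genes, HS 45 min (0 called) gave 451 with DESeq2, 1345 with the shared spread and 0 to 5786 with 1 sample left out. HS 135 min (941) gave 2159, 3243, 2615 with the GC offset and 11 to 2467 with 1 sample left out. Tu 45 min (786) gave 1843 with DESeq2, 1961 with the GC offset, 307 at a log2 fold change of 1 or more in size and 58 to 2499 with 1 sample left out. Tu 135 min (17) gave 639 with DESeq2, 411 with the shared spread, 288 with the GC offset and 0 to 61 with 1 sample left out. Tu 405 min (5960) gave 2548 at a log2 fold change of 1 or more in size and 4067 to 7897 with 1 sample left out. With total counts the median log2 value of all genes stood at -0.19 at HS 45 min, -0.19 at HS 135 min, 0.10 at Tu 45 min and -0.11 at Tu 405 min, against -0.03, -0.02, 0.0 and -0.01 with TMM. The share of calls that were higher went from 64.3% to 53.9% with total counts at HS 135 min, from 64.9% to 83.0% with total counts, 53.4% with the GC offset and 52.7% with DESeq2 at Tu 45 min, and from 94.1% to 58.7% with the GC offset and 49.8% with DESeq2 at Tu 135 min.

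The replicate block gave Cdkn1a 0.79 at HS 135 min and, with the GC offset as well, 0.66. It called 0 of the 10 genes and 0 of all genes at HS 135 min, 2 of the 10 with the GC offset as well, 21 of all genes at Tu 45 min and 0 of all genes at Tu 135 min, there also with the GC offset. The labels do not say whether equal numbers pair samples, and the correlations of same-numbered samples do not settle it for any group.

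Some values that did not pass edgeR's test with all samples and TMM alone changed sign. Of these, Ccng1 and Phlda3 at HS 45 min had passed without HS 45 min replicate 3. With total counts Mdm4 was at -0.14 at HS 45 min and -0.04 at HS 135 min, Trp53 at -0.15 at HS 135 min and 0.04 at Tu 45 min, and Phlda3 at -0.08 at HS 135 min and -0.08 at Tu 405 min. With the GC offset, and then with the replicate block added to it, HS 45 min gave Ccng1 0.09 and 0.09, Trp53inp1 0.15 and 0.18 and Phlda3 -0.19 and -0.14. HS 135 min gave Trp53 -0.09 and -0.09, Ccng1 0.22 and 0.20 and Phlda3 -0.38 and -0.34. Tu 135 min gave Trp53 -0.05 and -0.06, Mdm4 0.20 and 0.20 and Ccng1 0.05 and 0.02, and Tu 405 min gave Phlda3 -0.21 and -0.16. Leaving out 1 sample gave ranges through 0 for Mdm4 at HS 45 min (-0.16 to 0.14), for Trp53 (-0.02 to 0.10), Ccng1 (-0.53 to 0.20) and Perp (-1.16 to 0.05) at HS 135 min, and for Mdm2 (0.00 to 0.18) and Perp (-1.13 to 0.02) at Tu 45 min. At Tu 135 min it did so for Trp53 (-0.04 to 0.12), Mdm4 (-0.16 to 0.10), Ccng1 (-0.50 to 0.12), Phlda3 (-0.36 to 0.05), Ei24 (-0.20 to 0.26), Perp (-0.98 to 0.20) and Zmat3 (-0.11 to 0.32), and at Tu 405 min for Trp53inp1 (-0.02 to 0.28), Phlda3 (-0.09 to 0.10) and Perp (-0.97 to 0.21). The likeness of Zmat3 to Cdkn1a was -0.07 within groups.

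The files give estimated counts with no fragment lengths or read strand, the labels name no separate cultures or batches, and the p-values measure the spread among 3 samples of a group. Perp had few reads, and its values rest on single samples.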
